A study of Saccharomyces cerevisiae with 6 samples.

Results

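The comparison described here sets Saccharomyces cerevisiae deleted for FHL1 against wild type (WT). Its members are the arrays titled for either strain, 2 of the FHL1 deletion and 2 of WT, which are 4 of the 6 arrays in the series. The other 2 arrays hold an FHL1 and IFH1 double deletion and were used for the estimate of spread and for single named genes. All cells were grown at 30 °C and total RNA was hybridised to single-colour Affymetrix arrays in a first and a second experiment. The labels name no strain background, medium, selection marker or mating type. The arrays measured 5656 genes through a probe set (a group of short probes for 1 transcript) that names 1 gene, and 4242 genes were bright enough to be tested.

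FHL1 encodes a forkhead-type protein that sits at the promoters of ribosomal protein genes, and IFH1 encodes the coactivator that binds it there when cells grow well. TORC1 and protein kinase A signalling set how much IFH1 is present at these promoters, and Rap1 is the DNA-binding factor that marks most of them. Ribosomal protein transcripts are among the most abundant in growing yeast, and they usually fall when stress genes rise. The comparison asks which transcripts differ when FHL1 is missing, inside and outside the ribosome.

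All values below are log2 signals scaled to a common array median, and all differences are the FHL1 deletion minus WT with n = 2 arrays a group. A gene is said to have risen or fallen where limma's moderated test, adjusted by Benjamini and Hochberg over all 4242 genes, gave a p under 0.05. By that rule 546 genes rose, which is 12.9% of those tested, and 357 fell, which is 8.42%, so that 21.3% were called in either direction. These shares are the background against which each gene group is read. With the first WT, second WT, first deletion or second deletion array left out, 209, 129, 334 and 279 of all tested genes rose. The falls numbered 123, 123, 259 and 190 in that order. Counts of a gene group with an array left out are to be read against these totals. Both deletion arrays lay above both WT arrays in 1448 of the tested genes and below both in 1250. Groups that do not overlap therefore set no gene apart by themselves. The median difference over all tested genes was 0.02, with quartiles at -0.26 and 0.34. Under the scaling as deposited, which moved that median to 0.13, the calls were 769 rises and 267 falls. Precision is limited by the few arrays, and since the labels do not say whether replicates were separate cultures, the p-values cover the spread among these arrays alone. In bulk RNA, fewer cells with a transcript and less of it per cell cannot be told apart.

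The arrays carried differences of their own that touch the results. The first deletion array, which is that of the first experiment, had the markers of MATa cells (MFA1, the a-factor gene, at 12.87), whereas both WT arrays and the second deletion array had those of MATalpha cells (MFA1 at 7.26 to 7.79). None of the mating type markers tested was called, and the 2 deletion arrays differed widely from each other in them. The first WT array and the second deletion array held exactly equal values at 502 probe sets, and each also shared such values with the first double deletion array, at 573 and 859. First and second follow the titles, and the equal values link arrays across these numbers. The median of 9 bacterial control probe sets, as deposited, was 8.38 and 8.31 in WT and 7.61 and 7.72 in the deletion, and its part in the results was not tested. On the second deletion array, 9 genes lay at the floor of 5.63 while every other array in the series read over 8, and no other array had such a gene. ACC1, which encodes acetyl-CoA carboxylase, was one of them, at 12.36 and 12.24 in WT and at 11.34 and 5.63 in the deletion. Of these 9 genes PPN2 alone was called.

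Gene length moved with the direction of the calls. Among 464 protein-coding genes shorter than 500 bases, 152 rose (32.8%) and 22 fell (4.74%). Among 379 genes of 3000 bases or more, 12 rose (3.17%) and 45 fell (11.9%). The median difference went from 0.33 in the shortest class through a value close to 0 in genes of 1000 to 1500 bases to -0.14 in the longest. Both deletion arrays showed it, with medians of 0.36 and 0.32 in the shortest class and of -0.19 and -0.13 in the longest, first experiment first. Between the WT arrays, the second minus the first, the shortest class had a median of -0.05 and the longest one of -0.12. The 3' minus 5' signal of the control probe sets for SRB4, a measure of RNA integrity, was 2.25 and 1.52 in WT and 2.39 and 3.09 in the deletion, and that of ACT1 was 0.96 and 0.93 against 1.15 and 1.08. For SPT15 it was 0.98 and 1.12 in WT and 1.22 and 1.11 in the deletion, where the groups overlap. The part of RNA integrity in the length pattern was not tested. With each array's median taken within 6 classes of length, a scaling chosen after seeing the data, 297 genes rose and 405 fell, and 560 of the 903 calls were kept. Counts under this scaling are given beside gene groups below, as counts within length classes.

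**Figure D1:**
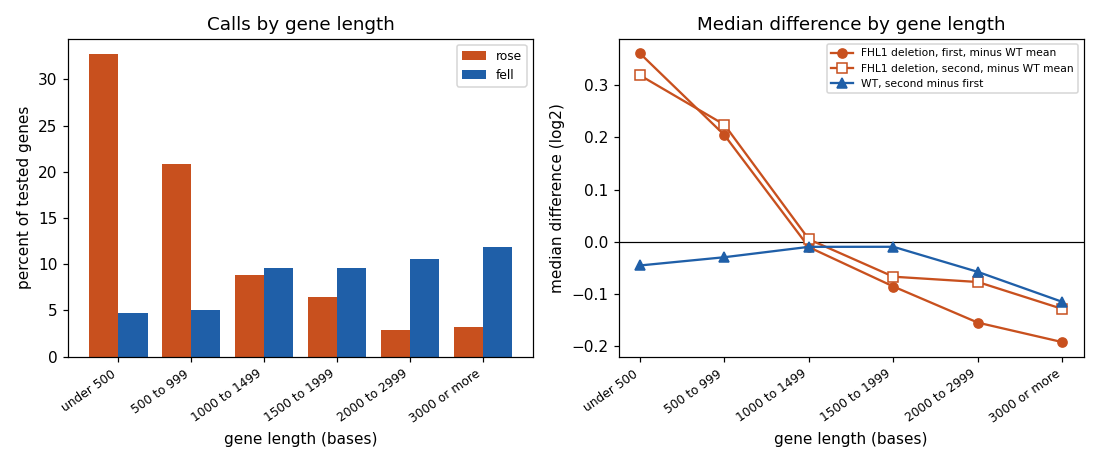
The left panel plots the percent of tested genes that rose (orange) or fell (blue) in 6 classes of gene length in bases, and the right panel the median log2 difference in each class for each FHL1 deletion array against the WT mean and for WT second minus first. Rises take 32.8% of the genes under 500 bases and 3.17% of those of 3000 bases or more, and both deletion arrays follow the same course.

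The deleted gene itself lay under the floor on all arrays. The deposited values of FHL1 were 4.91 and 5.02 in WT and 3.18 and 2.67 in the deletion, lower in both deletion arrays but too dim for a fold. IFH1 read 8.38 and 8.63 in WT and 8.91 and 8.92 in the deletion, a difference of 0.41 that was not called (SE 0.15, limma adjusted p = 0.0995). HIS3, a histidine synthesis gene that is also a common selection marker, read 7.13 and 6.99 in WT and 10.06 and 10.24 in the deletion. It rose by 3.09 (SE 0.15, limma adjusted p = 0.00049), and the groups lay far apart.

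Next to FHL1 on the chromosome, PRE2 encodes a catalytic subunit of the proteasome. PRE2 read 10.32 and 10.80 in WT and 8.61 and 8.27 in the deletion, and it fell by 2.12 (SE 0.20, limma adjusted p = 0.00253). The neighbour on the other side, COG4, a subunit of a Golgi tethering complex, differed by 0.12 (limma adjusted p = 0.562). Among 307 named genes tested, the double deletion differed from the FHL1 deletion in IFH1 alone, which was 3.29 lower there. Over all genes tested that comparison called 0.0236%.

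The cytosolic ribosomal protein genes moved in 1 direction where they moved at all, and unevenly. Of 47 large-subunit genes with a probe set of their own, 13 fell and 0 rose, with a median difference of -0.36. Of 33 small-subunit genes, 13 fell and 0 rose, with a median of -0.33. The large-subunit falls numbered 6 and 7 without the first or second WT array, and 10 and 9 without the first or second deletion array. The small-subunit falls numbered 6, 5, 9 and 7 in that order. These genes are short, so they stand against a class of genes that read higher: within length classes 27 large-subunit and 20 small-subunit genes fell, and the medians were -0.59 and -0.59.

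RPS7B, a small-subunit protein gene, read 11.95 and 12.35 in WT and 10.50 and 10.28 in the deletion, a difference of -1.76 (SE 0.20, limma adjusted p = 0.00311). RPL31B, of the large subunit, read 12.81 and 12.99 in WT and 11.43 and 11.42 in the deletion, a difference of -1.48 (SE 0.13, limma adjusted p = 0.00227). RPS22B read 12.02 and 12.34 against 10.77 and 10.76, a difference of -1.42. In all 3 the groups were separated by more than a unit, and the calls were kept with any of the 4 arrays left out. The same held for the calls of RPS0A (-1.37), RPL6B (-1.16), RPL22B (-1.10), RPS0B (-1.06), RPL16A (-0.89), RPL7B (-0.87), RPS15 (-0.74) and RPP2A (-0.74). For RPL7B another probe set differed by -0.19, and one shared with RPL7A by -0.14, and neither was called. RPS15 is a single-copy gene, and RPP2A encodes an acidic protein of the ribosomal stalk.

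Both copies were measured for 31 pairs of these genes. In 6 pairs both copies fell, in 11 pairs 1 copy fell, and in 14 neither did. The B copy had the lower difference in 19 of the 31 pairs. RPL22A differed by -0.11 and RPL22B by -1.10, and RPL31A differed by -0.48 and RPL31B by -1.48. The opposite order was seen for RPP2, where the A copy had -0.74 and the B copy -0.02. RPS27A lay at 0.25 while RPS27B lay at -0.54. The difference between copies was not tested, and near-identical copies may share signal on such probes.

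**Figure D2:**
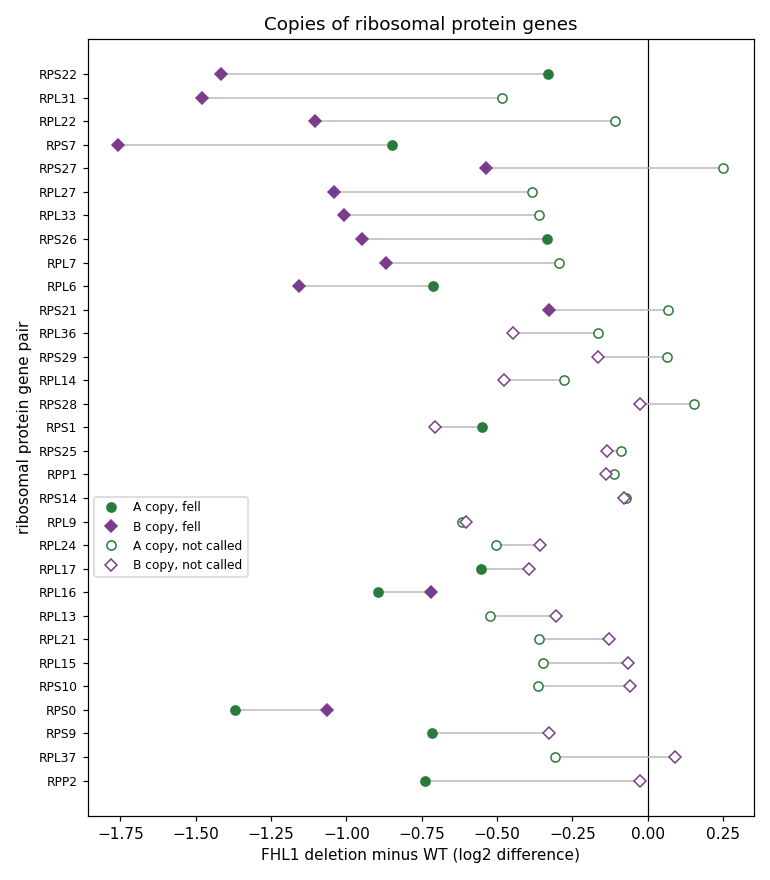
The plot shows the log2 difference, FHL1 deletion minus WT, for the A copy (circles) and the B copy (diamonds) of 31 ribosomal protein gene pairs, ordered by B minus A, with filled symbols where the gene fell. The largest gap lies at RPS22, where the A copy is at -0.33 and the B copy at -1.42.

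A further 58 probe sets name several ribosomal protein genes each, and they were tested in a fit over all 6956 probe sets, in which 9.65% rose and 11.7% fell. Of the 58, 15 fell, 0 rose and 43 were not called, with a median of -0.30. The deepest was a probe set shared by RPL12A and RPL12B, at -1.38 (limma adjusted p = 0.00375). Of 4 probe sets for RPS16A with RPS16B, 2 fell, by 1.05 and 0.87, and the others differed by -0.18 and -0.09 and were not called.

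Some genes for RNAs that are not messengers fell. Of 29 tested, rRNA genes and the telomerase RNA gene TLC1 among them, 8 fell, 2 rose and 19 were not called, with a median of -0.61, and with 1 array left out in turn the falls numbered from 7 to 11. SNR44, a guide RNA for rRNA modification, read 10.17 and 10.40 in WT and 8.10 and 8.20 in the deletion, a difference of -2.14 (SE 0.15, limma adjusted p = 0.00133). SNR44 lies inside the gene model of RPS22B, and SNR39, which fell by 1.70, lies inside that of RPL7A, which was not called (-0.29). On these probes a guide RNA cannot be told apart from the unspliced transcript of its host gene.

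SNR13, SNR69 and SNR8, also guides for rRNA modification, fell by 1.42, 1.43 and 1.10. RPR1, the RNA of RNase P that trims tRNA precursors, read 8.65 and 8.37 in WT and 6.64 and 6.91 in the deletion, a difference of -1.73. These calls were kept with any of the 4 arrays left out. SNR51 and SNR33 rose, by 0.95 and 1.07, and SNR33 was called at an adjusted p of 0.0477 by limma. The probe set used for RDN37-1, the rRNA precursor, fell by 2.59, but the mean of its 7 probe sets was not called. Some of them followed the WT array of the second experiment, whose rRNA control probe sets had a median of 9.84 against 5.38 to 6.56 on the other WT array and the deletion arrays.

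Few genes for the making of ribosomes fell. Of 80 genes of large-subunit assembly, 11 rose and 0 fell, with a median of 0.15, a share of rises near the background. With the first or second WT array left out the rises numbered 0 and 1, without the first or second deletion array 9 and 0, and within length classes 3. Of 72 genes of the small-subunit processome, which cuts the rRNA precursor, 5 rose and 2 fell, and the rises numbered 0, 1, 4 and 1 without the first WT, second WT, first deletion or second deletion array and 2 within length classes. UTP22, which belongs to that complex and is also found with casein kinase 2 and IFH1, fell by 0.93 (limma adjusted p = 0.00692), a call lost without the second WT array. RRN5, a subunit of the factor that recruits RNA polymerase I, fell by 0.94 and was kept with any array left out.

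Of 23 regulators of ribosomal protein promoters 2 rose and 1 fell, both shares being under the background. The fall was that of RAS2. RAS2 encodes a GTPase that activates adenylate cyclase upstream of protein kinase A, and it read 10.17 and 10.09 in WT and 8.96 and 8.995 in the deletion. It fell by 1.15 (SE 0.16, limma adjusted p = 0.00493), with tight groups and with any array left out. ESA1, the NuA4 histone acetylase, rose by 0.79, and YAK1, a kinase that opposes growth signalling, by 0.76. The ESA1 call ended without either WT array or the second deletion array, and the YAK1 call ended without the second WT array or either deletion array.

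Of 41 translation factor genes 2 fell, a share under the background, and 4 fell within length classes. The 2 were ANB1 by 0.99 and TEF4 by 0.60. In the fit over all probe sets another TEF4 probe set fell by 1.43. The ANB1 call ended without either WT array and the TEF4 call without any 1 of the 4. Of 29 aminoacyl-tRNA synthetase genes 9 fell, 0 rose and 28 had a difference below 0, with a median of -0.39. VAS1, for valine, and CDC60, for leucine, fell by 0.86 and 0.85, and the mitochondrial enzymes MSK1 and ISM1 by 0.87 and 0.94. These falls numbered 0 without the first WT array and 2 without any 1 of the others. Falls among all tested genes dropped too, from 357 to 123 without the first or second WT array. Without the first or second deletion array they numbered 259 and 190. The synthetase genes are long, with a median of 1932 bases, and within length classes 5 fell.

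Mitochondria gave opposite counts for 2 of their machineries. Of 66 mitochondrial ribosomal protein genes 10 fell and 1 rose, with a median of -0.30. EHD3 and RML2 fell by 1.01 and 0.97 and were kept with any array left out. Without the first or second WT array 2 of the group fell, without the first or second deletion array 8 and 4. Within length classes the falls numbered 29 and the median was -0.55.

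Of 78 genes of the respiratory chain and ATP synthase 29 rose and 4 fell, with a median of 0.34. COX26, a small subunit of cytochrome c oxidase, read 8.81 and 8.54 in WT and 11.33 and 11.06 in the deletion, a rise of 2.52 (SE 0.23, limma adjusted p = 0.00253). CYC7, the iso-2 form of cytochrome c, rose by 1.47, CYB2, which feeds electrons from lactate, by 1.39, and COX20, an assembly factor, by 0.99. All 4 were kept with any array left out. COX11, which delivers copper to the oxidase, and COX10, which makes a precursor of its heme, fell by 1.10 and 0.77, the COX10 call being lost without the second WT array.

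Most rises in this group were of short genes. Of 56 members under 1000 bases 27 rose, and of 22 longer ones 2 rose. Among all protein-coding genes tested, 389 of 1602 under 1000 bases rose (24.3%) and 154 of 2544 longer ones (6.05%). The part of length in these rises was not tested. The 56 members under 1000 bases had a median of 0.51 and the longer ones a median of 0.01, against 0.24 and -0.06 for all protein-coding genes tested. Within length classes 8 members rose and 8 fell. With 1 array left out the rises numbered 17 and 4 without the first or second WT array, and 11 and 14 without the first or second deletion array. Assembly factors outside the list, SDH6, SDH8 and COA2, rose by 1.56, 1.43 and 1.51, and AAC1, an ADP/ATP carrier, rose by 1.18. Genes of the mitochondrial DNA were uneven. In the fit over all probe sets, those naming COX1 with other mitochondrial genes fell by 1.46 and 0.92 or were not called (-0.69). Those naming COB with others rose by 0.58 or were not called (0.55 and -0.85). Of 3 tested mitochondrial genes with a probe set of their own 2 fell. OLI1, an ATP synthase subunit, read 12.76 and 12.58 against 10.86 and 10.12 and fell by 2.18, and ATP6 fell by 1.15, a call lost without the first WT array.

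**Figure D3:**
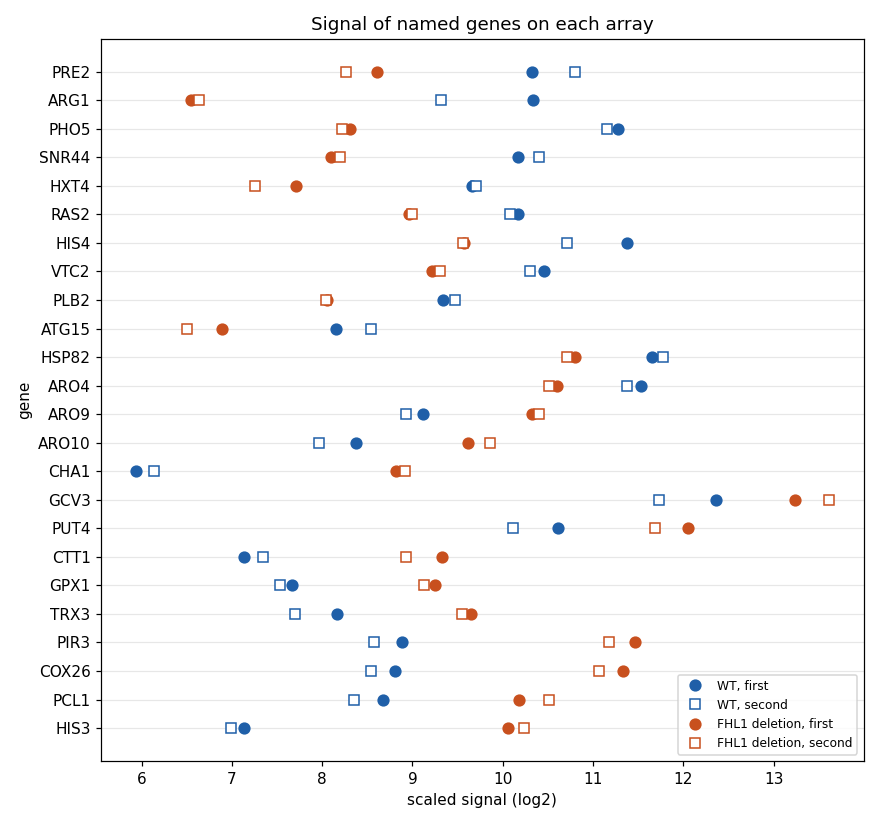
The plot gives the scaled log2 signal of 24 named genes on each of the 4 arrays, blue for WT and orange for the FHL1 deletion, filled circles for the first experiment and open squares for the second. The groups do not overlap in any of these genes, which were chosen among called genes. The same holds for 2698 of the 4242 genes tested. CHA1, at 5.94 and 6.14 in WT and 8.82 and 8.92 in the deletion, shows a wide gap with tight replicates.

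Rises among general stress genes moved little with single arrays. Of 44 tested, 12 rose and 2 fell, with a median of 0.45, and the rises numbered 12, 10, 12 and 14 with the first WT, second WT, first deletion or second deletion array left out. Within length classes 11 rose. DDR2, a stress-induced gene, read 10.16 and 9.47 in WT and 13.43 and 13.35 in the deletion, and HSP12, a membrane-associated heat shock protein, read 10.69 and 9.38 against 13.15 and 13.00. Both WT arrays lay below both deletion arrays, and the second WT array was the lower in both genes. CTT1, the cytosolic catalase, rose by 1.89, RTC3 by 2.30, TFS1, an inhibitor of carboxypeptidase Y, by 1.53, and DCS2, a regulator of decapping, by 1.38.

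Of 37 antioxidant genes 5 rose and 3 fell, shares near the background, and 3 rose and 7 fell within length classes. The falls numbered 0, 4, 1 and 3 without the first WT, second WT, first deletion or second deletion array. GPX1, a glutathione peroxidase, read 7.67 and 7.53 in WT and 9.25 and 9.13 in the deletion (difference 1.59, limma adjusted p = 0.0021), and TRX3, the mitochondrial thioredoxin, rose by 1.66. GTT2, a glutathione transferase, fell by 1.71 with the WT arrays far apart, at 10.06 and 8.66, and its call ended without the first WT or the first deletion array. A probe set shared by HSP32, SNO4 and HSP33, small relatives of HSP31, rose by 1.43, and one shared by DDI2 and DDI3, cyanamide hydratases induced by DNA-damaging agents, read 6.28 and 6.41 in WT and 8.37 and 8.37 in the deletion, a rise of 2.02.

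Some abundant chaperones fell. Of 53 chaperone genes 7 fell and 4 rose, and the falls numbered 2 and 4 without the first or second WT array and 4 and 6 without the first or second deletion array. Within length classes 8 fell and 3 rose. HSP82, the inducible form of Hsp90, read 11.65 and 11.77 in WT and 10.80 and 10.71 in the deletion, a difference of -0.95 (limma adjusted p = 0.0057). SSA1, a cytosolic Hsp70, fell by 0.59, and both calls were kept with any array left out. HSP42, a small heat shock protein, rose by 0.95, a call lost without either WT array or the first deletion array.

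Of 45 proteasome genes 11 rose and 3 fell, with a median of 0.29. POC4, an assembly chaperone, rose by 0.86 and was kept with any array left out, while the calls of IRC25, its partner (0.84), and UBI4, polyubiquitin (0.90), ended without the second WT array. Rises numbered 6 and 1 without the first or second WT array, 6 and 4 without the first or second deletion array, and 4 within length classes. Besides PRE2, the falls were BLM10 and ECM29, large proteins that bind the assembled particle, by 0.996 and 1.22, and both ended without the second WT array. Another BLM10 probe set differed by -0.25 and was not called. Of the other ECM29 probe sets tested, the dimmest differed by 0.01 and was not called, and the rest fell.

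**Figure D4:**
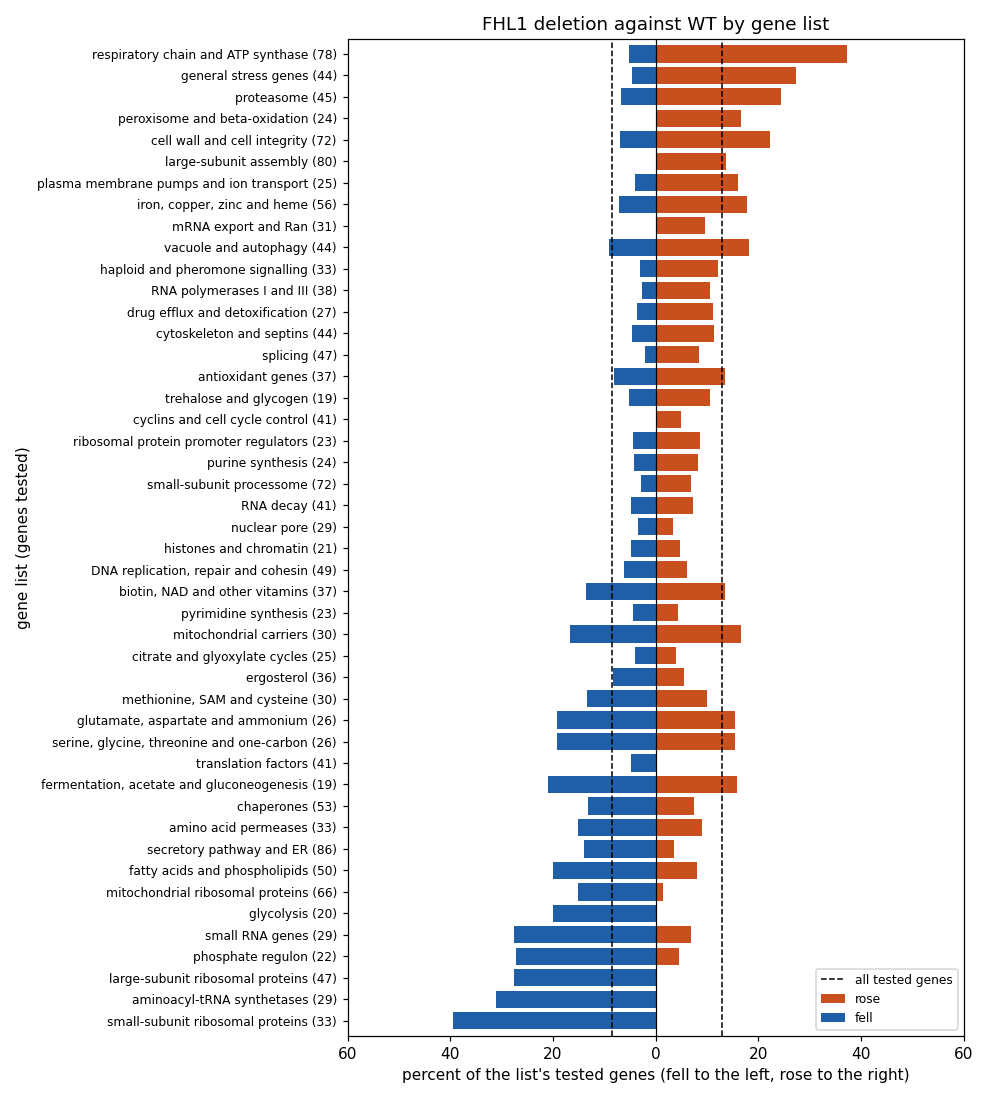
Bars show the percent of tested genes that rose (orange, to the right) or fell (blue, to the left) in each gene list with at least 19 tested genes, the number tested stands in brackets, and dashed lines mark 12.9% and 8.42% for all tested genes. Respiration (29 of 78) and general stress (12 of 44) stand at the top, and small-subunit ribosomal proteins (13 of 33 fell) at the bottom.

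Amino acid genes were called in both directions. CHA1, the deaminase that degrades serine and threonine, rose by 2.83 (SE 0.17, limma adjusted p = 0.000862). GCV3 and GCV1, of the glycine cleavage system, rose by 1.38 and 1.34, and AGX1, which makes glycine from glyoxylate, by 1.23. The GCV1 call ended without the second WT array, and the other 3 were kept with any array left out. In the whole group of 26 serine, glycine, threonine and one-carbon genes 4 rose and 5 fell. The falls numbered 0 without the first WT or first deletion array, 1 without either of the others and 2 within length classes.

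Among 15 genes for aromatic amino acids 9 fell and 2 rose, with a median of -0.54. ARO9 and ARO10, which degrade aromatic amino acids towards fusel alcohols, rose: ARO9 read 9.11 and 8.93 in WT and 10.32 and 10.40 in the deletion, and ARO10 read 8.38 and 7.96 against 9.62 and 9.86. ARO2 and ARO4, of the shikimate pathway that makes them, fell by 1.004 and 0.90. These 4 calls were kept with any array left out. The groups did not overlap in any of them, as in 2698 of the 4242 genes tested. The falls of the group numbered 2, 3, 4 and 3 without the first WT, second WT, first deletion or second deletion array, and 5 within length classes.

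Of 16 arginine genes 3 fell and 1 rose, of 7 histidine genes 2 fell and 1 rose, and of 8 lysine genes 2 fell and 1 rose. In lists this small a single call is a large share. The histidine rise was HIS3, the common selection marker described above. Within length classes the falls in the 3 lists were as many, and the lysine rise was lost. ARG1, argininosuccinate synthetase, had the largest called fall among probe sets that name 1 gene and were used in the gene tests, from 10.33 and 9.32 in WT to 6.55 and 6.63 in the deletion (difference -3.23, SE 0.31, limma adjusted p = 0.00253). ARG4, the next enzyme, fell by 0.99. CAR1 and CAR2, which degrade arginine, differed by 0.03 and -0.11 and were not called. HIS4 and HIS1 fell by 1.47 and 0.75, the HIS1 call being lost without the first WT array. LYS20 fell by 1.19 and ended without either WT array. GCN4, the activator of these pathways, is controlled mainly at translation, and its transcript rose by 0.43 (limma adjusted p = 0.0364), a call that no omission of a single array kept. PUT4, the proline permease, read 10.62 and 10.12 in WT and 12.06 and 11.69 in the deletion, a rise of 1.51. VBA1 and VBA2, vacuolar permeases for basic amino acids, moved in opposite directions, by -1.31 and 1.02, each kept with any array left out.

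In sulfur metabolism 5 of 13 sulfate assimilation genes fell and 0 rose, with 1, 2, 3 and 4 falls without the first WT, second WT, first deletion or second deletion array and 6 within length classes. MET5, of sulfite reductase, fell by 1.01 and was kept with any array left out. MET3, ATP sulfurylase, fell by 0.92, a call lost without the first WT array, and SUL2, a sulfate permease, by 0.93, a call lost without either WT array.

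Phosphate genes gave some of the deepest falls. Of 22 genes of the phosphate regulon 6 fell and 1 rose, while the median was -0.07, and within length classes 6 fell and 0 rose. PHO5, the secreted acid phosphatase, read 11.27 and 11.15 in WT and 8.31 and 8.22 in the deletion, a difference of -2.95 (SE 0.44, limma adjusted p = 0.00588). A probe set shared by its relatives PHO11 and PHO12 read 11.36 and 11.43 against 7.78 and 7.92, a difference of -3.54. PHO4, the activator of the regulon, fell by 1.46, and PHO8, the vacuolar alkaline phosphatase, by 1.21. The calls of PHO5, PHO4 and PHO8 were kept with any array left out. The regulon's falls numbered 3 without the first WT array and 4 without the second.

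Of 9 genes of polyphosphate synthesis and breakdown 4 fell and 0 rose, and 5 fell within length classes. VTC2, a subunit of the vacuolar complex that makes polyphosphate, read 10.46 and 10.30 in WT and 9.21 and 9.30 in the deletion, a difference of -1.12 kept with any array left out. VTC4, the catalytic subunit, fell by 1.11, a call lost without the first WT array. VTC3 fell by 1.42 and ended without either WT array or the second deletion array. PPN2, a polyphosphatase, fell by 2.68 with its 2 deletion arrays at 8.24 and 5.63, the second being at the floor, and the call ended without either WT array. SPL2, which controls low-affinity phosphate uptake, fell by 1.97 and ended without either WT array or the second deletion array.

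Some genes of sugar uptake and fermentation fell. Of 17 hexose transport and glucose sensing genes 4 fell and 0 rose, with 4, 2, 4 and 3 falls without the first WT, second WT, first deletion or second deletion array and 4 within length classes. HXT4, a hexose transporter, read 9.66 and 9.70 in WT and 7.71 and 7.25 in the deletion, and HXT1 fell by 1.14. HXK2, the main hexokinase in glucose, read 12.15 and 12.24 in WT and 11.19 and 11.02 in the deletion, a difference of -1.09. Of 20 glycolysis genes 4 fell and 0 rose, with 1 and 2 falls left without the first or second WT array and 2 without the second deletion array, and 3 within length classes. ADH5 and ADH6, alcohol dehydrogenases, fell by 1.33 and 0.95, while PCK1, of gluconeogenesis, rose by 1.20, a call lost without the second WT array. The calls of HXT4, HXT1, HXK2, ADH5 and ADH6 were kept with any array left out.

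GCY1, a glycerol dehydrogenase, rose by 2.11, and SOL4, of the pentose phosphate pathway, by 1.72. In storage carbohydrate, PGM1, the minor phosphoglucomutase, fell by 1.07, and 2 of 19 genes rose, which is near the background. The calls of GCY1, SOL4 and PGM1 were kept with any array left out. MDH2, the cytosolic malate dehydrogenase, rose by 1.23, a call lost without the first WT array.

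The cell wall group rose in part. Of 72 genes 16 rose and 5 fell, with a median of 0.25. PIR3, a wall protein with internal repeats, read 8.89 and 8.58 in WT and 11.46 and 11.18 in the deletion, a rise of 2.59 (SE 0.19, limma adjusted p = 0.00133). SPI1, a wall protein of stressed and stationary cells, rose by 1.49, NCA3, of the SUN family, by 1.61, and TIP1, a mannoprotein, by 0.74. PLB2, a phospholipase, and SUN4, another SUN family protein, fell by 1.35 and 0.96. These 6 calls were kept with any array left out. SLT2, the MAP kinase of the cell integrity pathway, rose by 0.94 and was kept in 2 of the 4 omissions. The rises numbered 8, 4, 7 and 12 without the first WT, second WT, first deletion or second deletion array, and 17 within length classes. Each omission left 3 falls.

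Some genes of protein mannosylation and membrane lipids fell. PMT1 and PMT2, the paired mannosyltransferases of the endoplasmic reticulum, fell by 1.02 and 0.86 and were kept with any array left out. In the secretory group 12 of 86 genes fell and 3 rose, and within length classes 7 fell and 0 rose. Of 50 genes for fatty acids and phospholipids 10 fell and 4 rose, and within length classes 8 fell and 3 rose. ALE1, an acyltransferase, and FAS1, the beta subunit of fatty acid synthase, fell by 1.04 and 1.11 and were kept with any array left out. FAS1 has 8 probe sets, which were uneven, and was not called with plain probe sets alone. In the fit over all probe sets another of them differed by -0.24 and was not called. The rest fell further than the one used, with differences from -2.09 to -4.55.

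The secretory falls numbered 3, 3, 6 and 4 without the first WT, second WT, first deletion or second deletion array, and the lipid falls 3, 3, 9 and 4. LRO1 and DGA1 both make storage triacylglycerol. LRO1 fell by 1.53 and ended without the first WT array, and DGA1 rose by 1.01 and ended without the second.

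Of 44 vacuole and autophagy genes 8 rose and 4 fell, the share of falls being near the background. Within length classes 4 rose and 4 fell. The rises numbered 1, 0, 3 and 3 and the falls 2, 2, 3 and 3 without the first WT, second WT, first deletion or second deletion array. ATG15, a vacuolar lipase, read 8.16 and 8.54 in WT and 6.89 and 6.51 in the deletion, a difference of -1.65 (limma adjusted p = 0.0057), and ATG13, a target of TORC1 in the initiation complex, fell by 1.06. Both were kept with any array left out. ATG5 and ATG10, of the conjugation system, rose by 0.91 and 0.76, calls lost without either WT array. ATG8, the ubiquitin-like protein that is conjugated to lipid, rose by 0.82 and ATG3, the enzyme that does so, by 0.72, and these calls also ended without either WT array, the first also without the first deletion array and the second also without the second.

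Of 37 genes for biotin, NAD and other vitamins 5 rose and 5 fell, and of 56 for iron, copper, zinc and heme 10 rose and 4 fell. The vitamin rises and the metal falls were near the background shares. Within length classes the counts were 4 and 4 for the vitamins and 5 and 6 for the metals. The vitamin rises numbered 2, 2, 4 and 3 and the falls 1, 1, 2 and 1 without the first WT, second WT, first deletion or second deletion array. The metal rises numbered 1, 3, 7 and 2 and the falls 2, 0, 2 and 1 in that order. BIO4, of biotin synthesis, rose by 1.13, POS5, the mitochondrial NADH kinase, by 0.94, and BNA1, of NAD synthesis, fell by 1.10. ROX1, the repressor of hypoxic genes, read 7.10 and 7.47 in WT and 8.51 and 8.37 in the deletion, a rise of 1.15. These 4 calls were kept with any array left out. Of 15 vitamin B6 and thiamine genes 1 rose, while the median was 0.42.

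Cell cycle and morphology genes gave single changes. PCL1, a G1 cyclin of the Pho85 kinase, read 8.67 and 8.35 in WT and 10.18 and 10.51 in the deletion, a rise of 1.83 (SE 0.18, limma adjusted p = 0.00278). It was 1 of 2 rises among 41 cyclin and cell cycle genes, of which 0 fell, both shares being under the background. STE18, the G protein gamma subunit of the pheromone pathway, rose by 1.68, and GIC2, an effector of Cdc42, by 1.02. These 3 calls were kept with any array left out, also without the array that carried MATa markers. HO, the mating type switching endonuclease, fell by 1.74 and its call ended without either WT array or the first deletion array. SFG1, a regulator of filamentous growth, fell by 1.59.

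SPA2, a scaffold of the polarisome at sites of growth, fell by 1.54, but its 7 probe sets were uneven. One of them differed by -0.29, another lay at the floor on all 4 arrays, and 2 lay at the floor on both deletion arrays, so that they give no exact difference. KCC4, a kinase of the bud neck, fell by 1.54, while its other 2 probe sets differed by -0.22 and -0.52. AUS1, a sterol importer, rose by 1.15, but another of its probe sets was called in the opposite direction. YDR034C-A had the largest of the called rises, 4.94, from a probe set that read 7.29 and 7.11 in WT and 12.08 and 12.20 in the deletion. Its other 6 probe sets lay close to or at the floor of 5.63, with no value over 6.71.

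Repeated families were read by probe sets that name several genes, and they are grouped here after their values were seen. The probe sets of a family share genes and are not independent. Of all 282 tested probe sets that name several genes, these families among them, 54 fell and 28 rose. Of 19 probe sets naming YRF1 genes, which encode helicases in the repeats at chromosome ends, 12 fell and 0 rose. The deepest read 10.46 and 11.20 in WT and 5.94 and 5.79 in the deletion, a difference of -4.96 (limma adjusted p = 0.00375 over all probe sets). The other 7 were not called, and their differences ran from -0.19 to 0.59. The brightest of these 7 read 11.96 and 11.79 in WT and 12.38 and 12.23 in the deletion, a difference of 0.43. Thus only falls were called in this family, and the differences above 0 were not called.

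Of 36 probe sets that name YCL019W or YCL020W with other genes, 8 fell, the deepest at -4.73, and the median was -0.66. Of 9 that name YMR045C with others, 2 fell, the deepest at -4.54. In both families the share of falls was near that of all probe sets that name several genes. In the opposite direction, 14 of 17 probe sets that name YHL009W-B with others rose, with a median of 1.28. Their WT values lay between 6.16 and 8.17 and their deletion values between 7.69 and 9.56, and no called probe set overlapped between the groups. Whether copy number or transcript level differs between the strains cannot be told apart on these arrays.

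**Figure D5:**
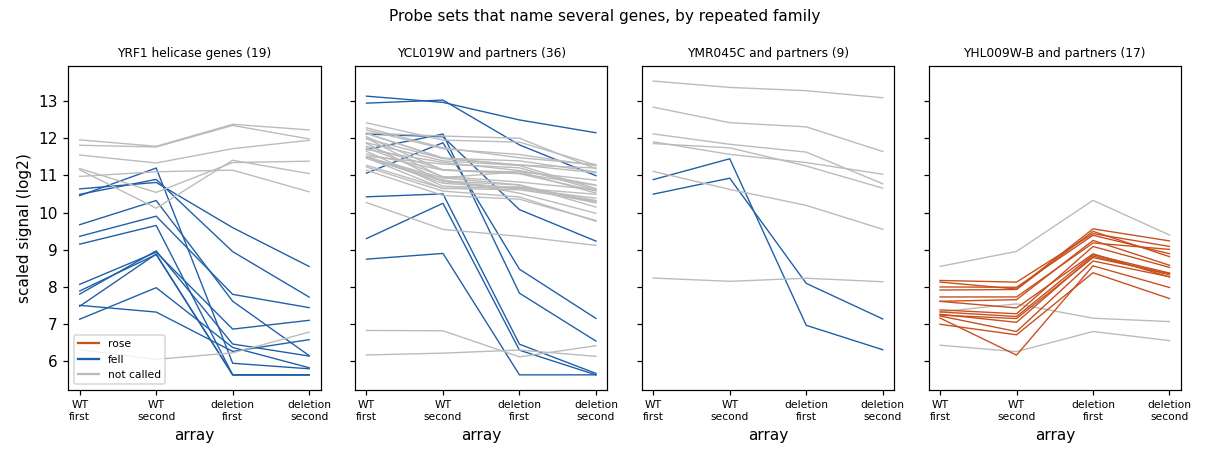
Each line is 1 probe set that names several genes, with its scaled log2 signal on the 4 arrays, in blue where it fell, orange where it rose and grey where it was not called, and panel titles give the number of probe sets. The falling YRF1 probe sets lie at 5.63 to 9.59 in the deletion, while 14 of the 17 probe sets of YHL009W-B rise together.

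Single arrays decided many calls. Of the 903 called genes 193 were kept with each of the 4 arrays left out in turn, 110 rises and 83 falls, and 263 were kept in none of the 4 omissions. Among the 40 largest rises 38 were kept throughout and among the 40 largest falls 32. Of the 193, 99 belong to none of the gene lists. The rises outside the lists included GOR1, glyoxylate reductase, at 8.84 and 8.35 in WT and 10.44 and 10.62 in the deletion, PUN1, a plasma membrane protein (1.54), and TGL2, a lipase (1.39). The falls outside the lists included ECL1, a gene known for longer chronological lifespan when overexpressed (-1.94), MAM33, a mitochondrial matrix protein (-1.44), and RSC8, a subunit of the RSC chromatin remodeller (-1.39).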

How the data were processed

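The authors deposited log2 expression values, 1 per probe set and array, per the range of the values; how they were summarised and normalised is not given in the sources used here. The platform annotation gave the gene names: 6504 of 9335 probe sets name 1 gene, 328 several and 2503 none, 60 of these being array controls. Each array's median over the 6504 was equalised, the floor was set at the 10th percentile (5.63), the brightest probe set of each gene was used (315 genes had several), and the dimmest 25% of genes were left out. The test was limma 3.58.1, run in R 4.3.3 (1 mean per group, eBayes with trend, all 6 arrays, 3 residual degrees of freedom, Benjamini-Hochberg adjustment), after a test on simulated data. SE is the model's standard error.

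Members and the 66 gene lists were chosen with earlier results of these data known. Named genes are FHL1, IFH1, the neighbours of FHL1, called strain markers, the 40 largest rises and 40 largest falls whose arrays do not overlap, and up to 6 called members with the smallest p of each list; other genes named were chosen after their values were seen. Gene order, names and lengths come from the R64 annotation; 97.0% of the lengths are multiples of 3, so they hold no UTRs, but introns are included. No coordinates are given, as the files name no build. Alternatives were other scalings, floors, filters, probe set rules, blocks and arrays left out.

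The numbers 1 and 2 of the experiments were checked as a pairing: deviations from the group means of same-numbered WT and FHL1 deletion arrays correlated at -0.378 across genes. With 2 arrays a group this cannot show how the arrays were paired, and the main test used no pairing.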

Additional observations from a re-analysis of the deposited data

Results flagged for a closer look

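Probe sets that name no gene were outside the comparison of genes and also changed. Of 1067 that were bright enough to be tested in the fit over all probe sets, 68 rose and 178 fell, which together is 23.1%, against 20.6% of probe sets that name 1 gene. By direction the classes differed: of 5607 probe sets that name 1 gene, 575 rose and 580 fell. The median difference was -0.42 for probe sets that name no gene and -0.01 for those that name 1. They drew attention as a signal in data that the gene comparison does not use. The deepest fall was from 13.95 and 14.01 in WT to 8.86 and 8.52 in the FHL1 deletion. The largest rise was from 5.65 and 5.63 in WT, at or close to the floor, to 9.64 and 10.55 in the deletion.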

How the results depend on the processing

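Of the 546 rises and 357 falls, counts with 1 array left out ranged from 129 to 334 rises and from 123 to 259 falls. With the experiment number as a replicate block, 296 rose and 209 fell. With the crossed pairing as a block, chosen after seeing the data because same-numbered arrays deviated in opposite directions, 1007 rose and 760 fell and IFH1 was called at an adjusted p of 0.03 by limma. Medians within classes of gene length gave 297 rises and 405 falls. The scaling as deposited gave 769 rises and 267 falls, 74.2% rises against 60.5%, and its median over all genes was 0.13. The other alternatives gave counts within 1.5 times of these. The double deletion differed from the FHL1 deletion in 1 named gene, in 0 to 4 across the settings: 0 with the lowest 50% of genes left out, and 1 to 4 with 1 array left out or 4 with the crossed block. Directions reversed for UGA3 with the mean of its probe sets (-0.037) and for SAM3 with plain probe sets only (0.055), where neither was called. The causes were not tested. The floor limits what can be said of dim genes, FHL1 among them.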
